A study of Mus musculus with 12 samples.

Results

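CP2, a small molecule known as a weak inhibitor of mitochondrial complex I, was compared with its vehicle in the brains of mice aged 23 months. The comparison rests on 8 of the 12 RNA-seq libraries of the series, taken by their labels: 4 from mice given CP2 and 4 from mice given vehicle. Both groups are labelled non-transgenic wild type of a C57BL/6;SJL-Tg background, aged 23 months, with a brain cross-section that held hippocampus and cortex as the tissue. The treated mice received CP2 at 25 mg/kg/day in drinking water with 0.1% PEG (polyethylene glycol), and the control mice received water with 0.1% PEG alone, both from 9 months of age. The remaining 4 libraries come from untreated C57BL/6 mice of 3 months, called Young here, and are of another strain label. They enter the filter on low counts, the scaling and the estimate of spread, but not the contrast. Otherwise they are given as side values. The series' design text speaks of a transgenic Alzheimer model, while every label of the 8 libraries says wild type, and the labels are followed here. Libraries are named by the numbers in their titles: vehicle 7, 8, 9 and 10, and CP2 11, 12, 13 and 15. The labels do not say that each library is a separate animal, so p-values measure only the spread between these samples.

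Complex I is the large enzyme through which NADH feeds electrons into the mitochondrial respiratory chain. Mild inhibition of it lowers the ATP to AMP ratio, which activates AMPK, the kinase that turns on energy-yielding pathways, mitochondrial renewal and autophagy and holds back synthesis. In brain, neurons lean on oxidative phosphorylation, astrocytes supply lactate, lipids and antioxidants, and pericytes and endothelium form the vessel wall through which glucose and oxygen arrive.

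The 4 vehicle libraries held 70548781 to 94741585 counted reads and the 4 CP2 libraries 78021395 to 99449665. Of 43346 deposited genes, 22553 passed the filter on low counts. Values below are CPM, read counts scaled to library size with TMM factors, unless said otherwise, errors are SD over 4 libraries, and differences are log2 fold changes of CP2 over vehicle with their standard error (SE) from edgeR. Correlations of log2 CPM ran from 0.993 to 0.996 within vehicle, from 0.994 to 0.997 within CP2 and from 0.992 to 0.996 between the groups. Some libraries stood apart in ways that cut across the groups. The summed CPM of 20 choroid plexus transcripts was 586, 1890, 303 and 1620 in vehicle 7, 8, 9 and 10, and 267, 1530, 1500 and 385 in CP2 11, 12, 13 and 15, so 2 libraries of each group held little of that tissue. The summed midbrain and hindbrain transcripts were highest in vehicle 7 (206, others 129 to 146) and CP2 15 (312, others 118 to 148), and the glycine transporter Slc6a5, a marker of hindbrain inhibitory neurons, reached 33.2 and 14.8 CPM there. Cortical and hippocampal neurons were present in every library: the vesicular glutamate transporter Slc17a7 ran from 664 to 904 CPM with vehicle and from 791 to 1040 CPM with CP2, and the dentate granule cell marker Prox1 from 47.8 to 64.5 and from 45.1 to 50.5 CPM.

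At an adjusted p under 0.05 (edgeR's quasi-likelihood test, Benjamini-Hochberg adjustment over 22553 genes), 10 genes differed between CP2 and vehicle, which is 0.0443% of those tested. The 6 that rose (0.0266%) were Hba-a1, Hba-a2, Mypn, Rbm46, Gm14513 and Gm14131. Hba-a1 and Hba-a2 are adult alpha globin genes, Mypn a sarcomere gene and Rbm46 a germ cell RNA-binding gene. Gm14513 and Gm14131 are annotated as processed pseudogenes. The 4 that fell (0.0177%) were Frem2, a matrix protein of the basement membrane, Aox4, an aldehyde oxidase, 1500004A13Rik and 5830417I10Rik. Of these, 5830417I10Rik is annotated as an unprocessed pseudogene, and 1500004A13Rik is an uncharacterised transcript. At an unadjusted p under 0.05 there were 1422 genes (6.31%), 689 higher and 733 lower. For 775 genes (3.44%) the 2 groups shared no range of values, with 365 higher and 410 lower in CP2. One library weighed heavily on the count of calls, which was 38 without CP2 15, and it was 6 without vehicle 9.

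**Figure D1:**
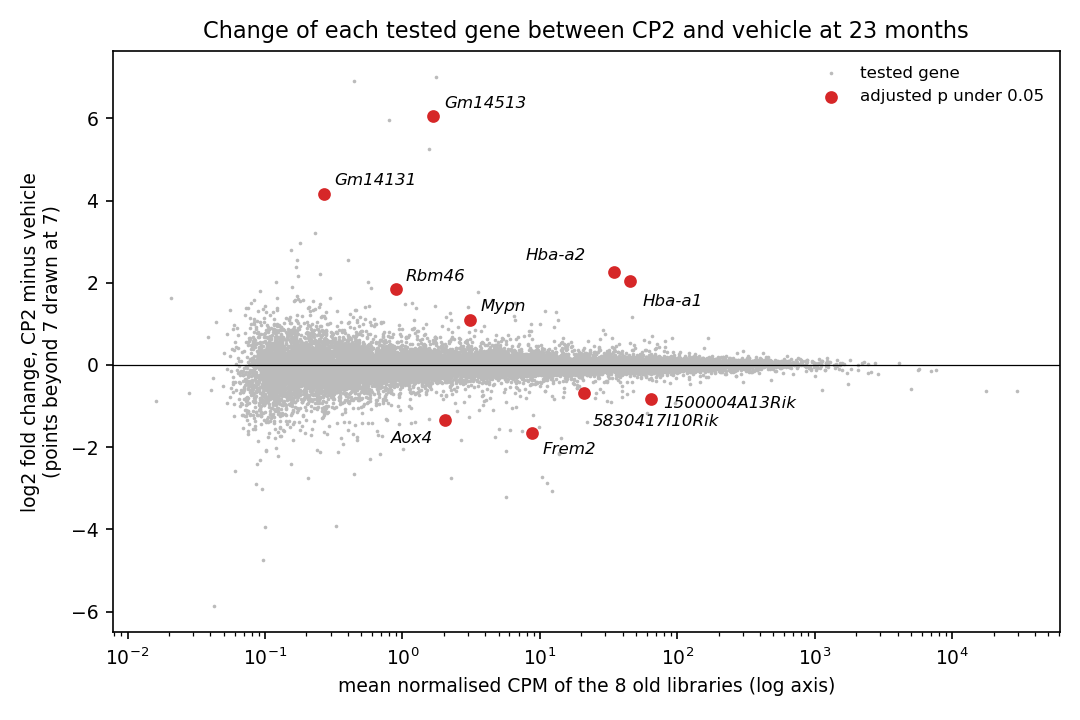
Log2 fold change of CP2 over vehicle (vertical axis) against the mean CPM over the 8 old libraries (horizontal axis, log scale) for the 22553 tested genes, with the 10 genes past an adjusted p of 0.05 marked and named. The 10 lie at low to middle levels, and none of the 2184 genes over 100 CPM is among them.

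Red cell transcripts made up the group with the largest difference. Haemoglobin alpha is made from Hba-a1 and Hba-a2 and adult beta globin from Hbb-bs and Hbb-bt, while Alas2 makes the rate-limiting enzyme of heme synthesis in red cell precursors. The windows before the start of Hba-a2, Hbb-bs and Alas2 are shown because these genes lay higher together at separate loci. The erythroid factor GATA1 is known to read the core GATAA. KLF1 reads the core CACCC, and many promoters hold the box CCAAT. Each sequence is the 250 bases before the RefSeq start (GRCm38.p6), 5′ to 3′ on the gene's strand, with these 3 motifs, on either strand, in capitals.
Hba-a2, chr11:32296242-32296491, plus strand: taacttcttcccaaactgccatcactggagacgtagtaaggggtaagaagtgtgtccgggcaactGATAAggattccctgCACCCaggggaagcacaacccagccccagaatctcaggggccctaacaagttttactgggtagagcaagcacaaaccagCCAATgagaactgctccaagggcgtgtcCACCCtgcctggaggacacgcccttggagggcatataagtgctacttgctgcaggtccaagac
Hbb-bs, chr7:103827929-103828178, minus strand: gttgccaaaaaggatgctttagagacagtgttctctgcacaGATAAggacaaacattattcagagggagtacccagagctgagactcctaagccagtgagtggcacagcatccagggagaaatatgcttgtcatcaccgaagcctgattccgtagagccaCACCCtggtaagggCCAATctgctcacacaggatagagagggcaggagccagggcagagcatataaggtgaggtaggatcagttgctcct
Alas2, chrX:150547167-150547416, plus strand: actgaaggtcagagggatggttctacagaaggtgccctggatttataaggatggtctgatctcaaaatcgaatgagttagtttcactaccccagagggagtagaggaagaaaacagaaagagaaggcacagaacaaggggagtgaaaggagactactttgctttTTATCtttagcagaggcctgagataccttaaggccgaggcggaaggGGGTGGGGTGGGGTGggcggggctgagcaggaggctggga
Of the 14 erythrocyte genes tested, 9 had a promoter entry. GATAA was found in 7 of them, CACCC in 7 and CCAAT in 7, while 22.6%, 52.0% and 33.8% of 32851 windows of the same length held these motifs. A gene was counted if any of its windows matched, while these shares count windows. The windows of Hba-a1 and Hba-a2 were the same over 247 bases, shifted by 3, so only 1 of them is shown. These are letter matches, not sites shown to be bound.

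Hba-a2 stood at 15.5, 9.96, 14.4 and 7.91 CPM in vehicle 7, 8, 9 and 10 and at 48.1, 36.5, 81.2 and 61.3 CPM in CP2 11, 12, 13 and 15. Every CP2 library lay above every vehicle library, with CP2 13 the highest and CP2 12 the lowest of the treated. Hba-a2 rose by 2.25 (SE 0.268, edgeR adjusted p = 0.00526), from a mean of 11.9 ± 3.58 to 56.8 ± 19.2 CPM (SD, n = 4 each). Hba-a1 stood at 25.1, 13.3, 15.4 and 16.9 CPM with vehicle and at 63.6, 38.6, 101 and 88 CPM with CP2, in the same order of CP2 libraries and again with no overlap. Hba-a1 rose by 2.04 (SE 0.255, edgeR adjusted p = 0.00653), and without vehicle 9 its adjusted p was 0.0572. The Hba-a1 call was also lost with only the 8 old libraries in the fit, without the 4 old libraries poorest in choroid plexus RNA, and without CP2 11 and 15 together. The 2 genes lie 12024 bases apart on chromosome 11 (Hba-a1 at 32283511 to 32284465 and Hba-a2 at 32296489 to 32297298, mm10). Hba-a2 shares 89.3% of its 50-base words with Hba-a1, so how reads were split between them is uncertain, and the pair is read as 1 signal.

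The beta globin genes and Alas2 lay higher in all 4 CP2 libraries but did not pass the threshold. Hbb-bs was at 62, 33.6, 52.6 and 32.6 CPM with vehicle and at 106, 97.1, 165 and 166 CPM with CP2, a log2 difference of 1.56 (SE 0.281, edgeR adjusted p = 0.0981). Hbb-bt, its neighbour 12538 bases away, was at 40.7, 22.5, 28.2 and 23.1 and at 47.6, 47.2, 82.2 and 82.5 CPM, a difference of 1.18 (edgeR adjusted p = 0.255). The 2 beta genes share more than 50% of their words (53.2% of those of Hbb-bs have a copy elsewhere) and carry the same limit as the alpha pair. Alas2, on the X chromosome and with 11.5% of its words in other genes, mainly Apex2, was at 4.51, 2.25, 4.12 and 2.82 CPM with vehicle and at 7.94, 8.1, 13.5 and 9.37 CPM with CP2. Its difference was 1.5 (SE 0.241, edgeR adjusted p = 0.0588). Among the 8 leave-one-out fits Alas2 passed only without CP2 15 (edgeR adjusted p = 0.0491), with adjusted p up to 0.162 in the others. The red cell anion exchanger Slc4a1 differed by 1.34, with overlapping groups.

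Across the 14 erythrocyte genes, 9 were higher at an unadjusted p under 0.05, against a background of 3.06% of all tested genes, and 7 did not overlap in that direction, against 1.62%. These counts take the near copies Hba-a1 and Hba-a2, and Hbb-bs and Hbb-bt, as separate genes, so they overstate the number of separate signals. Of the 14, 9 had a mean of at least 1 CPM. Klf1, the erythroid transcription factor, went the other way (log2 difference -0.74, at 0.294 and 0.178 CPM). The median log2 difference of the list was 1.26, while that of all tested genes was 0.00. Leaving out each library in turn gave 7 to 9 higher genes, and the median ran from 1.08 (without vehicle 8) to 1.53 (without vehicle 7). Without CP2 11 and CP2 15 together 8 genes were higher. Summed, the list stood at 436, 386, 403 and 358 CPM with vehicle and at 571, 527, 741 and 712 CPM with CP2. Lists of other blood cells were added after the data were seen: 6 platelet transcripts summed to 5.46 to 6.90 CPM with vehicle and 5.31 to 6.51 with CP2, and 6 neutrophil transcripts to 0.868 to 10.3 and 0.805 to 3.85. The 5 B cell transcripts summed to 10.2 to 14.2 CPM with vehicle and to 18.8, 10.7, 13.6 and 21.8 CPM with CP2. Of these 5, 4 lay above 0, with a median of 0.37. Of the 6 platelet transcripts 4 lay below 0, with a median of -0.09. All 6 neutrophil transcripts lay below 0, with a median of -0.94, and none reached a mean of 1 CPM. Whether blood left in the tissue plays a part in the globin difference was not tested. In bulk tissue, fewer cells of a type and less RNA per cell cannot be told apart, here and in every cell group below.

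**Figure D2:**
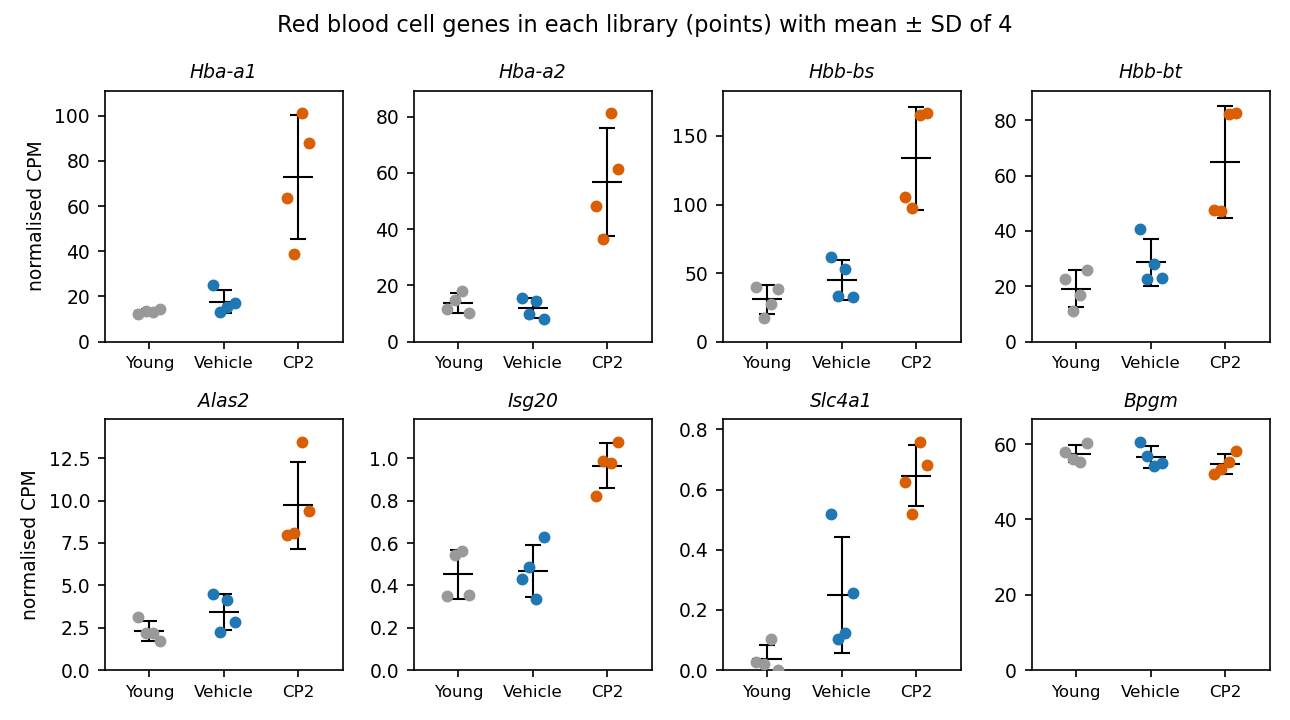
CPM of red cell genes in each Young, vehicle and CP2 library (points; bars are mean ± SD of 4; 1 panel a gene). For Hba-a1, Hba-a2, Hbb-bs, Hbb-bt and Alas2 the 4 CP2 values all lie above the 4 vehicle values, with CP2 13 the highest of the treated for Hba-a2 and Alas2.

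Frem2, which encodes a large extracellular matrix protein of the FRAS/FREM complex that ties epithelia to their basement membrane, had the clearest fall. It stood at 13.3, 12.4, 12.6 and 14.7 CPM with vehicle and at 3.86, 4.1, 4.19 and 4.63 CPM with CP2, and the libraries within each group lay close together. Frem2 fell by 1.66 on the log2 scale (SE 0.101, edgeR adjusted p = 4.04e-06). Young libraries held 9.32 to 12.8 CPM, so the vehicle value was near theirs and the CP2 value below all of them. Frem2 (chromosome 3, 53513939 to 53657355, mm10) shares none of its words with another gene. It passed the threshold in all 8 fits that left out a library, with adjusted p up to 6.8e-05, and in the 10 other settings tried.

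Aox4, of the aldehyde oxidase family (chromosome 1, 58210397 to 58268597, mm10), stood at 2.93, 3.44, 3.3 and 1.96 CPM with vehicle and at 1.24, 1.06, 1.19 and 1.09 CPM with CP2. The CP2 values were tight and the vehicle values spread, without overlap. Aox4 fell by 1.34 on the log2 scale (SE 0.2, edgeR adjusted p = 0.0382). The gene model Gm15759, which overlaps it, showed a difference of -1.42 and the kit does not mark strand, so their reads cannot be told apart. The call was kept in 2 of the 8 fits without a library and lost without vehicle 7, 8 or 9 or CP2 11, 12 or 13, with adjusted p up to 0.162.

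Mypn, which encodes myopalladin, a Z-disc protein of muscle (chromosome 10, 63115795 to 63203952, mm10), stood at 1.7, 1.94, 2.23 and 1.98 CPM with vehicle and at 4.89, 4.94, 3.78 and 3.2 CPM with CP2. CP2 11 and 12 were the highest and CP2 15 the lowest of the treated, still above every vehicle library. Mypn rose by 1.10 (SE 0.167, edgeR adjusted p = 0.0404), a call kept only without CP2 15 among the 8 leave-one-out fits and with adjusted p up to 0.165 in the others (without vehicle 7, 8, 9 or 10 or CP2 11, 12 or 13). Rbm46, whose protein binds RNA in germ cells (chromosome 3, 82837228 to 82876483, mm10), was a low transcript at 0.63, 0.353, 0.335 and 0.234 CPM with vehicle and 1.61, 1.46, 1.46 and 1.04 CPM with CP2. The groups did not overlap, and Rbm46 rose by 1.84 (SE 0.283, edgeR adjusted p = 0.0411). Its call was lost without vehicle 8, 9 or 10 or CP2 11, 12 or 13, with adjusted p up to 0.214. Its neighbour Lrat, 16096 bases away on chromosome 3, makes retinyl esters for vitamin A storage. Lrat stood at 0.365, 0.294, 0.397 and 0.425 and at 1.46, 1.2, 1.4 and 1.35 CPM and differed by 1.86 (SE 0.392, edgeR adjusted p = 0.18).

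The other called genes have no described function in the sources used here. Gm14513 and Gm14131 are annotated as processed pseudogenes, 5830417I10Rik as an unprocessed pseudogene and 1500004A13Rik as a processed transcript. Gm14513 (chromosome X, 11684002 to 11684124, mm10) had 16 reads in all 4 vehicle libraries together, 1213 in the CP2 libraries and 10 in Young, a fitted difference of 6.05 (SE 0.321, edgeR adjusted p = 1.37e-06). Its CPM ran from 0.0213 to 0.112 with vehicle and from 3.09 to 3.62 with CP2, so each CP2 library carried the transcript. Gm14131 (chromosome 2, 149356687 to 149357405) rose by 4.17 (edgeR adjusted p = 0.00514), from 0.0332, 0.0147, 0.0372 and 0.0213 to 0.427, 0.356, 0.672 and 0.583 CPM, and shares 11.2% of its words with other genes, mainly Clns1a. Its call was kept in all 8 fits without a library and lost without the 4 old libraries poorest in choroid plexus RNA. 1500004A13Rik (chromosome 3, 88782943 to 88832547) stood at 79.2, 84.6, 80.0 and 84.4 CPM with vehicle and at 41.1, 46.5, 48.6 and 47.7 CPM with CP2. It fell by 0.83 on the log2 scale (SE 0.0663, edgeR adjusted p = 7.2e-05), and the groups were far apart for their spread. Of the words of 1500004A13Rik, 33.5% are shared with 221 other genes, mainly 5830417I10Rik (18.2%). 5830417I10Rik, which overlaps 1500004A13Rik (chromosome 3, 88775216 to 88825587), stood at 24.6, 25.1, 25.7 and 27.9 and at 13.9, 15.9, 18.2 and 16.8 CPM. It fell by 0.67 on the log2 scale (SE 0.0834, edgeR adjusted p = 0.00653). The call was kept in all 8 fits without a library. It was lost without the 4 old libraries poorest in choroid plexus RNA, and without CP2 11 and 15 together. 5830417I10Rik also has near copies. It shares 68.4% of its words with Gon4l, whose own difference was 0.01. Reads of the overlapping pair cannot be told apart without strand.

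Several of the strongest differences came from neighbouring genes. Among the 83 genes at an unadjusted p under 0.001 (0.368% of those tested; 37 higher and 46 lower), 19 (22.9%) had another such gene within 100 kb, while 344 of all tested genes (1.53%) had one that near. These made 11 pairs, 9 with both genes in the same direction, and 6 pairs overlapped on the genome. Overlapping genes can share reads without strand, and the genes of each globin pair are near copies. The 22.9% therefore does not count separate signals only. Apart from the globin, Aox4 and Rbm46 pairs, the 11 pairs included Tdg and 1190007I07Rik, 6600 bases away on chromosome 10. Tdg is a thymine DNA glycosylase that removes mismatched and oxidised bases. Tdg stood at 20.5, 24.8, 22.1 and 20.7 CPM with vehicle and at 14.9, 15.4, 13.8 and 16 CPM with CP2. Its difference was -0.55 (SE 0.0902, edgeR adjusted p = 0.0649), and 1190007I07Rik differed by -0.84. Among the 8 leave-one-out fits Tdg passed only without CP2 15 (edgeR adjusted p = 0.0411), with adjusted p up to 0.24 in the others. The pseudogene model Gm9855 on the same chromosome shares 76.5% of its words with Tdg and lay the other way, at 0.0995, 0.0588, 0.0744 and 0.0744 CPM with vehicle and at 3.6, 3.45, 3.54 and 1.52 CPM with CP2. How reads divided between Tdg and its copy in each library was not tested.

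Genes next to the threshold were taken from those not called, with at least 1 CPM and no overlap between the groups, which 253 higher and 192 lower genes met. Their edgeR adjusted p started at 0.0588, and their values are a description. Among the higher, P4ha3, a collagen prolyl hydroxylase, was at 4.46, 3.96, 3.98 and 4.35 and at 6.25, 6, 7.15 and 6.77 CPM (difference 0.64). Ucp2, an uncoupling protein of the inner mitochondrial membrane, was at 17.7, 20.1, 13.8 and 20.7 and at 25.2, 26.5, 31.5 and 24.2 CPM (0.57). Mthfd1l, of mitochondrial one-carbon metabolism, differed by 0.36, the G protein subunit Gnb4 by 0.31, the chloride channel family gene Clic5 by 0.48 and Obfc1, of the telomere-binding CST complex, by 0.39. The larger differences of this kind were Pyroxd2 at 0.93 (from 1.74 to 3.31 CPM on average) and the cilium gene Cfap54 at 0.92. Among the lower, Thrsp, a regulator of fatty acid synthesis, was at 24.9, 15.7, 19.4 and 14.8 and at 9.71, 11.4, 10.3 and 12.2 CPM (-0.78). Apln, the peptide ligand apelin, was at 26.7, 27.1, 27.3 and 32.3 and at 21.9, 24.5, 20.3 and 20.5 CPM (-0.38). Htra1, a secreted protease, differed by -0.24, Fgd6 by -0.37, Dph7 by -0.30, Asrgl1 by -0.19 and Fam181b by -0.26. Larger differences downwards were Fam71e1 (-0.91), Trim30d (-0.72), the lysine-degrading enzyme Aass (-0.69), Glns-ps1 (-0.68) and the tryptophan-degrading enzyme Tdo2 (-0.63, from 2.97 to 1.92 CPM).

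Lists of 1095 genes in 51 groups, 1067 of them tested, were then described by how many members passed and by their median. The erythrocyte list was the 1 list with a called gene. All other members named below failed the adjusted threshold, so directions are given as values. Medians lay above 0 in 33 of 51 lists. The backgrounds given, 3.06% higher and 3.25% lower at an unadjusted p under 0.05, are those of the fit with all libraries. Counts without a library come from other fits. Without CP2 15, 2628 of 22893 tested genes were at that p, and without CP2 12, 1039 of 22901, beside 1422 of 22553 with all. List counts of those fits are therefore not to be set beside these backgrounds.

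**Figure D3:**
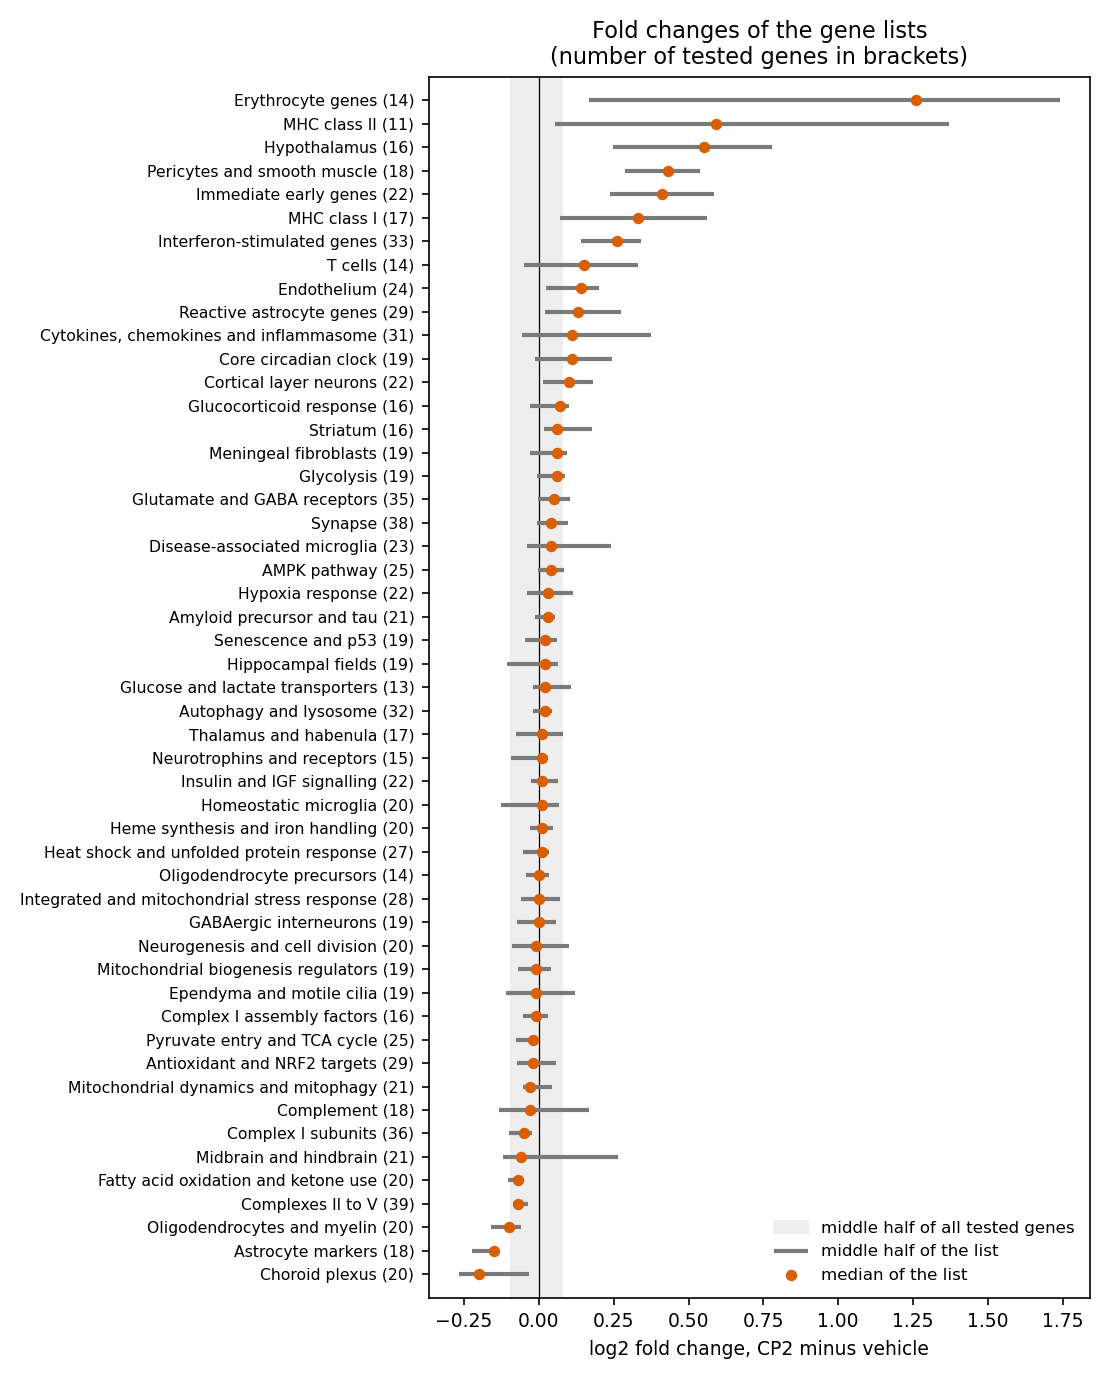
Median log2 fold change of CP2 over vehicle (horizontal axis) with the range between the quartiles of the members (bar) for each of the 51 gene lists. The erythrocyte list stands at 1.26, MHC class II at 0.59, hypothalamus at 0.55, pericytes and smooth muscle at 0.43 and immediate early genes at 0.41. The respiratory chain lists lie near 0. None of the hypothalamus genes was at an unadjusted p under 0.05.

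In the vessel wall, mural cell transcripts were the higher ones. All 18 pericyte and smooth muscle genes had a log2 difference above 0, 10 of them at an unadjusted p under 0.05 (background 3.06%) and 5 without overlap (background 1.62%), with a median of 0.43. Rgs5, known as a brake on G protein signals in pericytes, was at 56.5, 59.5, 62.4 and 55.7 CPM with vehicle and at 84.2, 81.8, 75.3 and 92 CPM with CP2 (difference 0.51, SE 0.093, edgeR adjusted p = 0.0981). CP2 15 was the highest library of all. Kcnj8 and Abcc9, the pore and the regulatory subunit of the pericyte ATP-sensitive potassium channel and neighbours 16506 bases apart on chromosome 6, were at 2.33 ± 0.181 against 3.53 ± 0.286 CPM (SD, n = 4 each) and at 5.43, 6.13, 7.96 and 5.21 against 12.1, 10.1, 9.77 and 11.8 CPM. Their differences were 0.60 (edgeR adjusted p = 0.19) and 0.82 (edgeR adjusted p = 0.232). The pericyte transporter Atp13a5 differed by 0.48, smooth muscle actin Acta2 by 0.73 and Tagln by 0.71. The count and the median leaned on single libraries: 5 higher genes without vehicle 10 or without CP2 15, a median of 0.24 without CP2 15, and 4 genes with a median of 0.11 without CP2 11 and CP2 15 together. Without the 4 old libraries poorest in choroid plexus RNA 2 genes were higher, with a median of 0.22. The summed list stood at 228, 233, 234 and 209 CPM with vehicle and at 296, 260, 251 and 355 CPM with CP2. CP2 15 also led in midbrain and hindbrain transcripts, whose part in this was not tested.

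Among endothelial transcripts, 19 of 24 lay above 0, with a median of 0.14. At an unadjusted p under 0.05, 3 were higher (12.5%, background 3.06%) and 1 lower (4.17%, background 3.25%). Leaving out each library gave 1 to 6 higher genes (1 without vehicle 7, 8 or 10 or CP2 11 or 15, 6 without CP2 12) and a median down to 0.06 (without CP2 15), and without CP2 11 and CP2 15 together it was -0.02. The difference between the endothelial and mural lists was not tested. The vessel receptor Tie1 was at 8.05, 8.22, 7.29 and 6.56 CPM with vehicle and at 9.63, 8.32, 10.0 and 10.4 CPM with CP2 (difference 0.35). Claudin 5 (Cldn5), the main tight junction protein of the blood-brain barrier, was at 31.1, 29.3, 27.7 and 30.3 and at 26.8, 21.3, 19.8 and 26.8 CPM (difference -0.32). Neither pair of groups overlapped, and they lay in opposite directions. Emcn differed by 0.34 and the angiopoietin receptor Tek by 0.27.

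Astrocyte marker transcripts were lower in CP2. Of 18 tested, 17 had a difference below 0, 10 at an unadjusted p under 0.05 (background 3.25%) and 10 without overlap (background 1.82%), with a median of -0.15. Acsbg1, which activates fatty acids, was at 193, 180, 179.9 and 182 CPM with vehicle and at 142, 148, 143 and 169 CPM with CP2 (difference -0.29, SE 0.0538, edgeR adjusted p = 0.107). The growth factor receptor Fgfr3 was at 160.1, 162, 174 and 169 and at 132, 142, 139 and 148 CPM (-0.25), and Aldh1l1, a folate enzyme used to mark astrocytes, at 59.1, 66.5, 65.9 and 67.4 and at 46.6, 54.4, 54 and 57.8 CPM (-0.28). The differences were small in size, yet the 4 and 4 values were apart for each of these. Connexin 43 (Gja1) was at 245, 248, 239 and 242 and at 188, 207, 222 and 222 CPM (-0.22), and Aldoc, the astrocyte aldolase, differed by -0.14. The list summed to 6060, 6590, 6380 and 6520 CPM with vehicle and to 5250, 5840, 5650 and 5520 CPM with CP2, with no overlap. The number of lower genes was 5 without CP2 11 and up to 10 otherwise, with medians from -0.19 to -0.14, and it was 7 without CP2 11 and CP2 15 together.

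Genes of reactive astrocytes did not follow the marker list. Gfap, the intermediate filament that rises in reactive astrocytes, was at 494, 343, 334 and 325 CPM with vehicle and at 354, 372, 423 and 353 CPM with CP2, with a difference of 0.01 whose sign depended on the scaling and the libraries used (-0.01 with upper-quartile factors). Vehicle 7 was the highest vehicle library. Of 29 reactive genes, 3 (10.3%, background 3.06%) were higher at an unadjusted p under 0.05, with a median of 0.13. They were Ggta1 (0.42), the immunoproteasome subunit Psmb8 (0.56) and the oncostatin receptor Osmr (0.27).

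**Figure D4:**
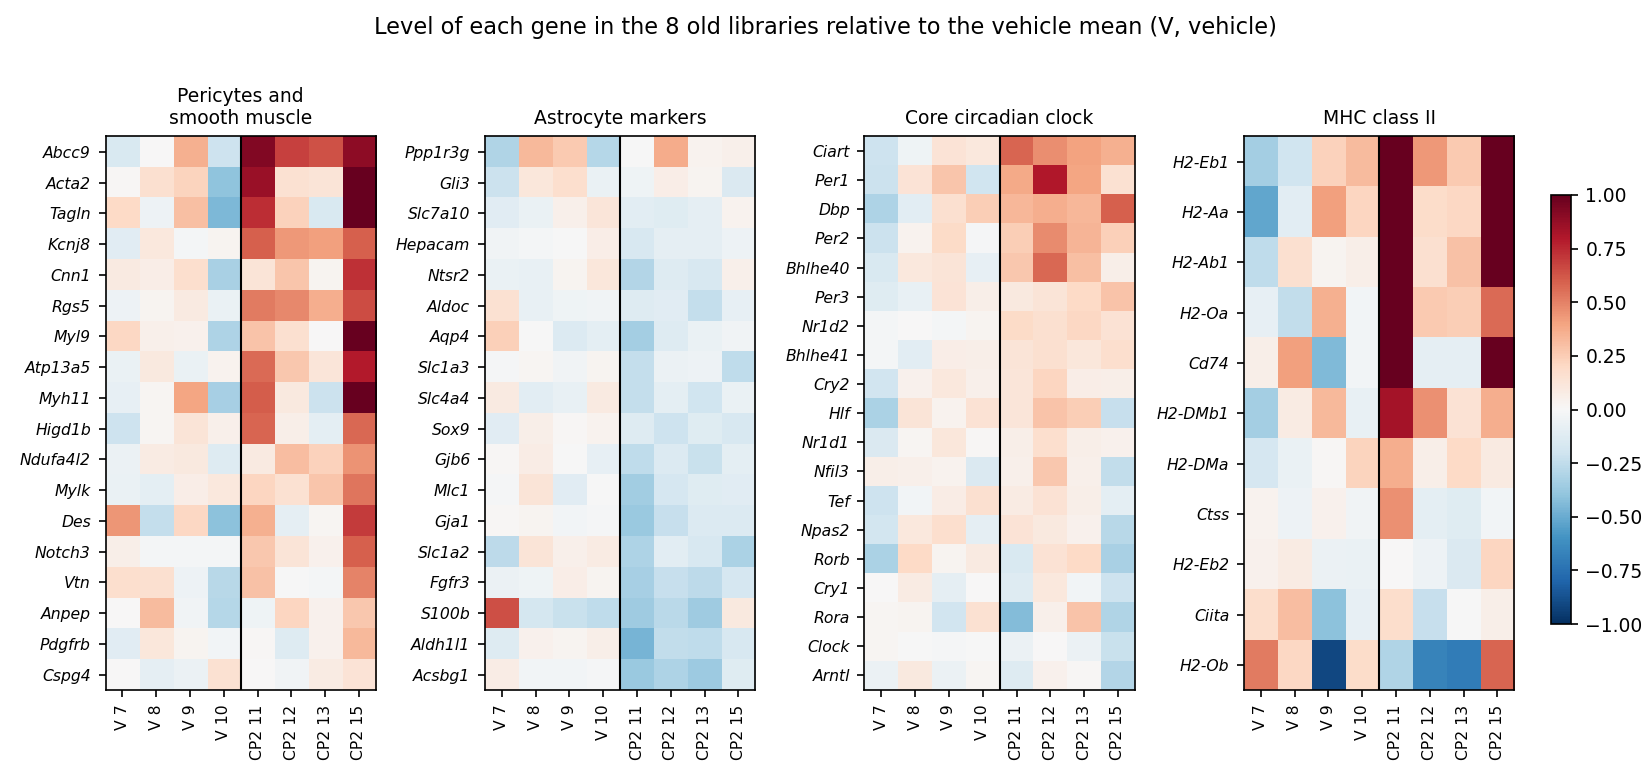
Level of each pericyte, astrocyte, clock and MHC class II gene in each of the 8 libraries as the difference in log2(CPM + 0.5) from that gene's vehicle mean (colour, limited to 1 either way; rows are genes, columns libraries). The MHC class II genes are high in CP2 11 and less so in CP2 15, while most astrocyte genes are lower in the 4 CP2 libraries.

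Microglial genes went both ways. Olfml3, a matrix protein, was at 10.7, 15.4, 12.5 and 14.3 CPM with vehicle and at 20.8, 17.5, 17.5 and 15.5 CPM with CP2 (difference 0.43). The nucleotide receptors P2ry12, at 39.4, 42.5, 38.1 and 38.4 and at 29.3, 28.5, 32.9 and 35.5 CPM, and P2ry13 differed by -0.33 and -0.30, and the integrin Itgam by -0.28. These 3 did not overlap between groups, and all lay lower. Over the 20 homeostatic genes the counts at an unadjusted p under 0.05 were 1 higher (5%, background 3.06%) and 4 lower (20%, background 3.25%), with a median of 0.01. Of 23 disease-associated microglia genes, 2 were higher (8.7%, background 3.06%), Itgax (0.98) and Cst7 (0.97), with a median of 0.04. Leaving out each library gave 1 (without CP2 13) to 7 (without vehicle 7) higher genes. None of 18 complement genes passed an unadjusted p of 0.05 (median -0.03). C4b, the complement C4 gene that is known to climb with age in brain, was at 132, 85.5, 52.3 and 109 and at 95.6, 85.2, 81.3 and 123 CPM, and its small difference of 0.02 was -0.22 when the 4 libraries with least choroid plexus RNA (vehicle 7 and 9, CP2 11 and 15) were left out. Its mean in Young was 20.9 ± 4.13 CPM.

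Antigen presentation genes were high in CP2 11 and to a lesser degree in CP2 15. H2-Eb1, an MHC class II chain, was at 1.14, 1.31, 1.94 and 2.08 CPM with vehicle and at 11.4, 2.3, 2 and 6.42 CPM with CP2 (difference 1.77). H2-Ab1 was at 1.28, 1.88, 1.67 and 1.72 and at 9.11, 1.88, 2.1 and 4.34 CPM, and the invariant chain Cd74 differed by 1.29. CP2 12 and CP2 13 lay near vehicle for these genes. Of 11 class II genes, 6 (54.5%, background 3.06%) were higher at an unadjusted p under 0.05, with a median of 0.59. Without CP2 11, 1 was higher, with a median of 0.40. Without CP2 11 and CP2 15 together 0 were higher, with a median of 0.13. Of 17 class I genes, 3 (17.6%, background 3.06%) were higher with a median of 0.33. Their number was 0 without vehicle 7, 1 without vehicle 8 or CP2 11 and 7 without CP2 12, and the median was 0.03 without CP2 11 and -0.07 without CP2 11 and CP2 15 together. H2-K1, the classical class I chain, was at 13.6, 16.8, 30.1 and 21.7 and at 58.1, 28.9, 26.5 and 33.7 CPM. Interferon-stimulated genes had 2 of 33 higher, Oasl2 (0.54) and I830012O16Rik (0.35), against a background of 3.06%, with 31 of 33 above 0 and a median of 0.26. Their number was 0 without vehicle 7, vehicle 10 or CP2 11, 1 without CP2 12 or 15, 8 without vehicle 8 and 13 without CP2 13, and the median was 0.15 without CP2 11 and 0.09 without CP2 11 and CP2 15 together.

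Of 19 genes of the circadian clock, 14 lay above 0 with CP2 and 5 below. The core clock is a feedback loop in which CLOCK and BMAL1 drive the Per, Cry and Rev-erb genes through the E-box, and the products then repress the drive. The windows before the starts of Ciart, a repressor of the loop, and Per1 are shown, again 250 bases on the gene's strand, for Per1 at the first of its 2 RefSeq starts (RefSeq, GRCm38.p6), with the E-box CACGTG, which reads the same on both strands, in capitals.
Ciart, chr3:95882229-95882478, minus strand: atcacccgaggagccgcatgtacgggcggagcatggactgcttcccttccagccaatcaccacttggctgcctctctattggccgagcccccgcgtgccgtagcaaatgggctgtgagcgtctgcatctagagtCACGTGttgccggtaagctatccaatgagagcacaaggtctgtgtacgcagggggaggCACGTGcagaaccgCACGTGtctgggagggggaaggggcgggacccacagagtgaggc
Per1, chr11:69098699-69098948, plus strand: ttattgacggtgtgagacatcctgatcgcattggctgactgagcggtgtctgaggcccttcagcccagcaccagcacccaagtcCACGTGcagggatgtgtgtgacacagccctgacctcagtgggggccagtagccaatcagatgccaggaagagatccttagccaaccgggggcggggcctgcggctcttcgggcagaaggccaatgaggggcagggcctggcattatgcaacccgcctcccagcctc
The window of the other Per1 start does not hold these letters. The E-box stood in a window of 5 of the 17 clock genes with an entry (Per1, Cry1, Tef, Ciart and Bhlhe41), and in 6.02% of all windows of that length. A gene was counted if any of its windows matched, while the 6.02% counts windows. Of 6 genes with an entry that were higher at an unadjusted p under 0.05, 3 held the E-box. Per2, Dbp and Nr1d2 are not among the genes found to hold it. Only 6 of the 8 higher genes had an entry, so this does not show that a window of each was searched. Of the 19, 8 were higher at an unadjusted p under 0.05 (background 3.06%) and 5 did not overlap (background 1.62%), with a median of 0.11. Ciart was at 6.89, 7.79, 8.89 and 8.68 CPM with vehicle and at 12.2, 11.3, 10.8 and 10.4 CPM with CP2 (difference 0.47, SE 0.131). Per2 was at 25.9, 30.9, 34.4 and 29.9 and at 35.9, 42.1, 38.2 and 35.6 CPM (0.32). Dbp, a clock output factor, was at 47, 54.2, 65.2 and 69.4 and at 73.7, 75.2, 73.5 and 88.3 CPM (0.40), with CP2 15 the highest. Nr1d2, which encodes Rev-erb beta, was at 131, 133, 131 and 136 and at 151, 148, 153 and 146 CPM (0.18). The groups did not overlap for these 4, and edgeR adjusted p-values were 0.276 for Nr1d2, 0.303 for Per2, 0.427 for Ciart and 0.476 for Dbp. Per1 differed by 0.44, Per3 by 0.18 and Bhlhe40 by 0.31. Leaving out each library gave 6 to 9 higher genes and a median of 0.05 (without vehicle 7 or CP2 12) to 0.14. The labels used here give no time of day at which tissue was taken, so time of collection and treatment cannot be told apart for these genes.

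Immediate early genes, which neurons switch on within minutes of firing, varied widely among libraries of 1 group. Summed over the list they were at 769, 1380, 1390 and 865 CPM with vehicle and at 1670, 1750, 1170 and 996 CPM with CP2, so the groups overlapped. Of 22 tested, 21 lay above 0, with a median of 0.41, and Nr4a3 (0.47) alone was at an unadjusted p under 0.05 (4.55%, background 3.06%). Leaving out single libraries gave 0 to 9 such genes and a median of 0.25 (without vehicle 7) to 0.58. The 9 came without CP2 15, where 2628 of 22893 tested genes were at that p. Maff differed by 0.39, Egr4 by 0.63 and Nr4a2 by 0.28. Of 38 synapse genes 1 (2.63%, background 3.06%), the adhesion gene Nrxn3, was higher (0.10). Without CP2 15, 8 were higher, in the fit where 2628 of 22893 tested genes were at an unadjusted p under 0.05. Without vehicle 7, 0 were higher and 2 lower. Snap25, of the vesicle fusion machinery, was at 1677, 1836, 1737 and 1630 and at 1898, 1949, 1734 and 1898 CPM (0.12, 95% interval -0.01 to 0.25). App, the amyloid precursor gene, was at 1298, 1405, 1375 and 1479 and at 1567, 1578, 1538 and 1344 CPM, a difference of 0.12 (95% interval -0.02 to 0.25).

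The genes of complex I, the enzyme CP2 acts on, differed little. Of 36 nuclear-encoded subunits, 1 was higher at an unadjusted p under 0.05 (2.78%, background 3.06%) and 0 were lower. It was Ndufs5, at 43, 41.1, 41 and 38.6 CPM with vehicle and at 46.2, 43.7, 47.8 and 44.3 CPM with CP2 (difference 0.15). The other 3 with the smallest p were Ndufb4 (-0.17), Ndufs7 (-0.10), which holds an iron-sulphur cluster next to the quinone site, and Ndufa13 (-0.15). The median was -0.05 and 31 of 36 lay below 0. The 95% intervals of all 36 subunits stayed inside a 1.5-fold difference either way, while those of 68.4% of all tested genes did so. All 36 had a mean of at least 1 CPM, and that share depends on level. It was 7.72% under 1 CPM, 75.2% from 1 to 10 CPM, 97.1% from 10 to 100 CPM and 98.9% above 100 CPM. Without CP2 15 there were 8 lower subunits and a median of -0.13. In that fit 2628 of 22893 tested genes were at an unadjusted p under 0.05. CP2 15 held 2720 CPM of complex I transcripts, beside 2300 to 2460 in the other CP2 libraries and 2390 to 2740 with vehicle. Of 16 assembly factors none was at an unadjusted p under 0.05, with a median of -0.01; Nubpl, which delivers iron-sulphur clusters to the complex, differed by 0.23. The 39 genes of complexes II to V had none at that p, a median of -0.07, 38 below 0 and all 39 inside 1.5-fold. Without CP2 15, 6 of them were lower at that p with a median of -0.12, 2 without vehicle 10 and 1 without vehicle 7, where the median was -0.03. Genes of the mitochondrial genome had 0 counts in every library and were not analysed here.

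AMPK subunits and targets were also close between groups. Prkaa1, the alpha 1 catalytic subunit, was at 41.7, 38.4, 39.7 and 41 CPM with vehicle and at 43.2, 42.6, 44 and 43.7 CPM with CP2, a difference of 0.11 (95% interval 0.02 to 0.19) without overlap. Prkaa2, the alpha 2 subunit common in neurons and muscle, was at 44, 50.6, 50.3 and 47.4 and at 57.7, 58.8, 56.3 and 43.8 CPM, with CP2 15 below the other CP2 libraries (difference 0.17, interval -0.06 to 0.41). Mtor, the growth kinase that AMPK holds back, differed by 0.08. Of 25 genes 2 (8%, background 3.06%) were higher at an unadjusted p under 0.05, with a median of 0.04. Leaving out each library gave 1 to 5 higher genes, with 5 without CP2 15, where 2628 of 22893 tested genes were at that p. Phosphorylation, through which AMPK acts, is not read by RNA-seq.

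**Figure D5:**
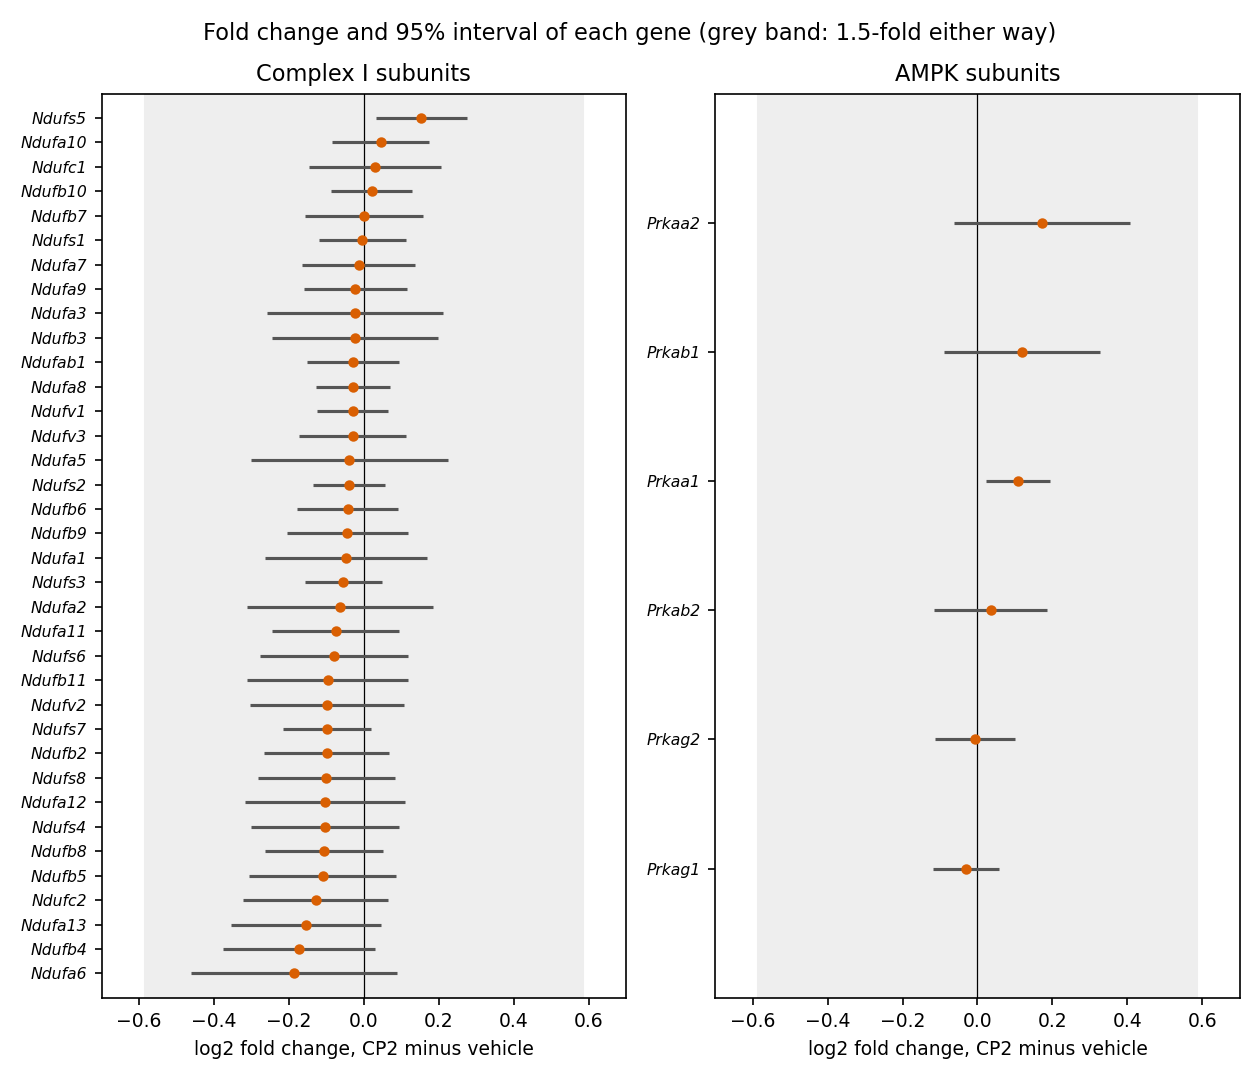
Log2 fold change of CP2 over vehicle with its 95% interval for each tested complex I subunit and AMPK subunit gene (horizontal axis, with a grey band of 1.5-fold either way). The intervals of all 36 complex I subunits lie inside a 1.5-fold difference either way, and Ndufs5 and Prkaa1 lie above 0.

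Regulators of mitochondrial number and form gave few differences. Ppargc1a, the coactivator PGC-1 alpha that drives mitochondrial biogenesis, was at 59.7, 61.9, 59.8 and 59.8 CPM with vehicle and at 67.2, 61.5, 59.9 and 58.5 CPM with CP2 (difference 0.04, 95% interval -0.08 to 0.15). Tfb2m, a mitochondrial transcription factor, was the 1 of 19 biogenesis genes at an unadjusted p under 0.05 (5.26%, background 3.06%). Its difference was 0.27. Esrra differed by -0.09 and the deacetylase Sirt3 by -0.09. None of 21 genes of dynamics and mitophagy was at that p; Mfn1, of outer membrane fusion, differed by -0.11, the fission gene Dnm1l by 0.08 and parkin (Park2) by -0.26.

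Of 13 glucose and lactate transporters 9 lay above 0. At an unadjusted p under 0.05, 1 was higher (7.69%, background 3.06%) and 1 lower (7.69%, background 3.25%). Slc16a1, the lactate carrier MCT1 of endothelium and glia, was at 57.1, 57.9, 54.3 and 54.1 CPM with vehicle and at 41.9, 46.4, 41.7 and 53 CPM with CP2 (-0.29). Slc2a1, the glucose carrier GLUT1 of the blood-brain barrier, was at 74.3, 79, 84.3 and 77.7 and at 84.7, 90.5, 83.6 and 94.1 CPM (0.16). The first pair of groups did not overlap and the second did. The lactate carrier Slc16a7 differed by 0.12 and the neuronal glucose carrier Slc2a3 by 0.11. Of 19 glycolysis genes, Aldoc was the 1 at an unadjusted p under 0.05, and it was lower (5.26%, background 3.25%). Pgam1 differed by 0.10 and Ldha by 0.14, with a list median of 0.06. None of 25 genes of pyruvate entry and the TCA cycle was at that p (median -0.02). Of 20 fatty acid and ketone genes 19 lay below 0, with a median of -0.07 and 1 lower at that p (5%, background 3.25%).

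Stress programs had few members past an unadjusted p of 0.05. Among 29 antioxidant and NRF2 target genes 1 was lower (3.45%, background 3.25%) and 1 higher (3.45%, background 3.06%). These were Slc7a11, the cystine importer, at 81.6, 77.5, 85.3 and 74.2 and at 62, 52.6, 58.3 and 70.1 CPM (-0.39), and Txnrd1, thioredoxin reductase (0.11). Nfe2l2, which encodes NRF2, differed by 0.09 (95% interval -0.08 to 0.26) and Sod2, the mitochondrial superoxide dismutase, by -0.09 (interval -0.20 to 0.01). Both of these intervals held 0. In the integrated stress response the chaperonin Hspd1 (0.09) was the 1 of 28 at an unadjusted p under 0.05 (3.57%, background 3.06%). Asns differed by 0.09 and Phgdh, of serine synthesis, by -0.11. Of 22 hypoxia genes 4 were higher (18.2%, background 3.06%), Egln3 (0.26), Bhlhe40, Slc2a1 and Kdm3a (0.13), and Apln was lower (4.55%, background 3.25%). Leaving out each library gave 1 (without CP2 12) to 6 (without CP2 15) higher genes. Those fits had 1039 of 22901 and 2628 of 22893 tested genes at an unadjusted p under 0.05. In iron handling, a list of 20, the light ferritin Ftl1 differed by 0.31, the transferrin receptor Tfrc by 0.13 and heavy ferritin Fth1 by -0.13.

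Precision depended on the level of a gene. The median half-width of the 95% interval was 0.795 on the log2 scale under 1 CPM (5879 genes), 0.300 from 1 to 10 CPM, 0.145 from 10 to 100 CPM and 0.127 above 100 CPM. Intervals stayed inside 1.5-fold for 7.72%, 75.2%, 97.1% and 98.9% of the genes in these ranges. Expression spread within a group was of like size in both: the median SD of log2(CPM + 0.5) over 16674 genes was 0.107 with vehicle and 0.0997 with CP2, and 44.1% of these genes had the larger SD in CP2. Ttr, the transthyretin gene of choroid plexus, differed more between libraries than between groups: it was at 129.7, 861, 6.81 and 688 CPM with vehicle and at 5.08, 738, 686 and 40.6 CPM with CP2, high in the same 4 libraries as the choroid plexus sum.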

How the data were processed

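Poly(A) RNA libraries (TruSeq RNA v2, which does not mark strand, per the labels) of 12 brain samples were used. The authors deposited a table of raw counts per gene with RPKM values and a coding length beside them, per the file headers; RPKM was not used in any test. The submitters' processing notes name bcl2fastq, TopHat, Subread, featureCounts and build mm10; versions are not given in the sources used here. Counts of all 12 libraries were fitted together by group (R 4.3.3, edgeR 4.0.16; filterByExpr, TMM, quasi-likelihood F test), with CP2 minus vehicle as the contrast and Benjamini-Hochberg adjustment. DESeq2 1.42.0 and limma 3.58.1 served as alternatives. Within a group, no pair of libraries agreed within sampling noise (chi-square per gene at least 14.7). The test was checked on simulated data. Named genes were all called genes; per direction the 10 smallest p and 6 largest changes (p under 0.01) among uncalled, properly named genes of at least 1 CPM without overlap between groups; up to 4 genes by p per described list; and 9 genes always. Gm15759, Lrat, Gon4l, Gm9855, 1190007I07Rik and some list members were named after their values were seen. Members and lists were chosen with earlier results of these data known. Near copies were found as shared 50-base words between transcripts; intervals are 95% intervals. Some genes that the rule names are not reported here.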

Additional observations from a re-analysis of the deposited data

Results flagged for a closer look

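In 14 of 282 groups of 4 values, 1 library lay far from the other 3 by Dixon's 95% criterion for the gap over the range. The criterion flags about 1 in 20 of unrelated groups by chance. The groups here are genes of the same 8 libraries and so are not unrelated, and vehicle 7 and CP2 15 recur among the flags. Whether the flags arose by chance was not tested. Vehicle 7 lay above the other vehicle libraries for Acsbg1 (193 CPM, others up to 182), Aldoc (998, others 856 to 877), Fth1 (1420, others 1156 to 1191) and Gfap (494, others 325 to 343). Apln was highest in vehicle 10 (32.3 CPM, others 26.7 to 27.3) and Ppargc1a in vehicle 8 (61.9, others 59.7 to 59.8). CP2 15 lay apart from the other CP2 libraries for Ggta1 (4.61 CPM, others 6.03 to 6.16), Dbp (88.3, others 73.5 to 75.2), App (1344, others 1538 to 1578), Sirt3 (58.5, others 51.9 to 53) and Prkaa2 (43.8, others 56.3 to 58.8). CP2 13 lay low for I830012O16Rik (4.99 CPM, others 7.56 to 7.73) and Uqcrc1 (197, others 205 to 206), and CP2 11 for Atg3 (33.1, others 35.1 to 35.2).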

How the results depend on the processing

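The 10 calls were 10 with RLE factors, 9 with upper-quartile factors, 11 with limma voom, 8 at a mean of at least 1 CPM, 13 with only the 8 old libraries (7 shared; Hba-a1, Mypn and Rbm46 lost) and 9 with the choroid plexus covariate (8 shared; Mypn and Rbm46 lost). DESeq2 called 109 genes (47 higher and 62 lower), all 10 among them. No filter on low counts gave 17 (12 higher), and an adjusted p under 0.10 gave 23 (15 higher and 8 lower). Without the 4 old libraries lowest in choroid plexus transcripts 21 were called (14 lower), 5 of the 10 among them. Without CP2 11 and CP2 15 together, chosen after seeing the data, 13 were called (9 lower), 5 of them shared. Leaving out each library gave 6 (without vehicle 9) to 38 (without CP2 15) calls, 3 to 17 higher, 3 to 21 lower, and 1039 to 2628 genes at an unadjusted p under 0.05 (1422 with all). For all these shifts the cause was not tested. The median of all genes was 0.00174, and -0.0121 with upper-quartile factors. No paired analysis was possible because the library numbers of the vehicle group do not recur in the CP2 group. Of 141 named genes, 5 took the opposite sign in some setting, none of them called. Ppargc1b (-0.104 with all) was at 0.0118 and C4b (0.0207 with all) at -0.224 without the choroid-low libraries. Ttr (-0.197 with all) was at 0.763 and C4b at -0.188 without CP2 11 and 15. Gfap (0.00521 with all) was at -0.0106 with upper-quartile factors, -0.00189 at a mean of at least 1 CPM and -0.000434 with only the old libraries. With 1 library left out, Gfap ranged from -0.0619 to 0.166, C4b from -0.183 to 0.223, Ppargc1a from -0.0117 to 0.0615 and Ttr from -0.784 to 0.420. Under 1 CPM, 7.72% of intervals stayed inside 1.5-fold, so few genes of that level could be bounded.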

Other observations

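Region lists were uneven among libraries. Of 16 hypothalamic genes 15 lay above 0 with a median log2 difference of 0.55, and none was at an unadjusted p under 0.05 by edgeR; their summed CPM was 99.4, 83.0, 89.6 and 165 with vehicle and 84.5, 109, 218 and 114 with CP2, with CP2 13 and vehicle 10 the highest. Of 20 oligodendrocyte and myelin genes 19 lay below 0, with a median of -0.10. Coch, a gene of the hippocampal list, was at 10.8, 8.5, 7.78 and 7.16 CPM with vehicle and at 17.9, 22.2, 22.3 and 10.7 CPM with CP2 (log2 difference 1.09, SE 0.245), and its groups overlapped through CP2 15.

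Gm6356 and Prss27 were chosen after their values were seen. Gm6356 had 0 reads in the 4 vehicle libraries together and 1300 in the CP2 libraries, at least 393-fold higher when the vehicle group is set to the floor of 3 reads over the group (edgeR adjusted p = 0.0981; 4.9e-05 with only the 8 old libraries, 0.0168 with no filter and 2.15e-08 with DESeq2). It shares 49.2% of its words with 104 other genes, so its reads are uncertain. Young held 822 reads, with 0.013 CPM in Young 1. Prss27, a serine protease, had 2 reads with vehicle, 325 with CP2 and 308 in Young.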
